A study of Mus musculus with 6 samples.

Results

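The 10 genes of tryptophan catabolism and NAD synthesis described here are Tdo2, Ido2, Afmid, Kmo, Kynu, Haao, Acmsd, Qprt, Nampt and Nnmt, taken by symbol from the 22488 gene rows of each count table. All 10 were found once, the Entrez identifier gave the same symbol for 10 of 10, and all 10 passed the filter on low counts. RNA came from whole livers of male wild-type C57BL/6 mice, 6 to 8 weeks of age, all fasted for 16 h. By the protocol the 3 controls were given 200 µl of the salt buffer HBSS into the abdominal cavity, although their treatment field names none. The other 3 samples came from mice given 6 mg/kg of lipopolysaccharide (LPS), a bacterial cell wall component that sets off inflammation. The interval between injection and sampling is not given in the sources used here, and each label stands for 1 library. Nothing beyond the titles says that the libraries of a group are separate mice, so p-values measure the spread between these 6 samples, which may in part be technical.

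The liver is the main site at which tryptophan is broken down. Tdo2, and in other settings Ido1 or Ido2, opens the indole ring, Afmid yields kynurenine, and Kmo, Kynu and Haao carry the chain to an unstable intermediate. That intermediate either closes spontaneously to quinolinate, which Qprt turns into a precursor of NAD, or is diverted by Acmsd toward complete oxidation. NAD is also rebuilt from nicotinamide, its own breakdown product, in a salvage route whose rate-limiting enzyme is Nampt, while Nnmt methylates nicotinamide and so removes it from that route.

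In LPS livers 7 of the 8 genes from tryptophan to Qprt and Acmsd were lower, Kmo had a log2 fold change near 0, and Nampt and Nnmt were higher. Ido2, Afmid and Kynu fell to 8.47%, 6.98% and 9.88% of their control means, Haao and Qprt to 46.9% and 45.1%, and Tdo2 to 76.9%. Nampt rose 9.52-fold and Nnmt 3.90-fold. Of the 10 genes, 2 rose and 7 fell at an adjusted p under 0.05 (edgeR, Benjamini-Hochberg over the 12078 genes tested), and the median of their log2 fold changes was -1.12. LPS changed 62.2% of all tested genes, 31.2% upward and 31.0% downward, with a median of 0.01, so a call alone does not set a gene apart in these livers. The control and LPS values of 9 of the 10 genes did not overlap, a property shared by 67.4% of tested genes.

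Reference sequence upstream of the start site was used for 6 of the 10 genes (RefSeq, GRCm38.p6). The 250 bases before the start are shown for 3 genes that stand at the entry (Tdo2), the end of the route from tryptophan (Qprt) and the entry of salvage (Nampt). Capitals mark matches on either strand to any of 7 motifs, namely NF-kB (GGGA and CC with any 4 bases between), TTCNNNGAA (STAT), TTGCNNAA (C/EBP), CAAAGTCCA (HNF4), the E-box CACGTG, the promoter element GGGCGG known as the GC box and, as the last motif, TATAAA of the TATA box. No 2 matches in these windows overlapped. The RefSeq start used here lies inside the GENCODE gene bounds given below for these 3 genes.
Tdo2, chr3:81975729-81975978, minus strand: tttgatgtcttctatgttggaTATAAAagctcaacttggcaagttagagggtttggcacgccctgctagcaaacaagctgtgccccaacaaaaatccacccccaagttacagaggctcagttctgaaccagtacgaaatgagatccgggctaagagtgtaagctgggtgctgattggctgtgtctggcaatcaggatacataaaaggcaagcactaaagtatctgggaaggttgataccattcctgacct
Qprt, chr7:127122030-127122279, minus strand: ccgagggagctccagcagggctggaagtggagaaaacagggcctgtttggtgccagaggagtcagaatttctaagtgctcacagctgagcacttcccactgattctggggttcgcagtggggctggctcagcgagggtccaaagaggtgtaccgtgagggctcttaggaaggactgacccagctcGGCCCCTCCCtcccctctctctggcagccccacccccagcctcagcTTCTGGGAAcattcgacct
Nampt, chr12:32820085-32820334, plus strand: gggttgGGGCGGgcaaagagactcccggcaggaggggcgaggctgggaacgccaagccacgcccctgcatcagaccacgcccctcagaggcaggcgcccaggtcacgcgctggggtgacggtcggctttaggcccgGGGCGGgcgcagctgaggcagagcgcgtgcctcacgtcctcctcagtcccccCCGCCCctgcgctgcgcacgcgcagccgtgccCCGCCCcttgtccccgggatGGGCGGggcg

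The Nampt window held 5 GC boxes, 75.6% G and C and 27 CpG dinucleotides, more CpG than 91.4% of the 32851 mouse windows of this kind. The Tdo2 window held 3 CpG and 46.4% G and C, beside medians of 6 and 52.4% over all windows. The Qprt window had 1 match to the NF-kB motif, which 17.6% of all windows hold, and 1 to the STAT motif, which 7.02% hold. The GC box was found in 2 of the 6 windows and in 32.7% of all. The single match in the Tdo2 window was to TATAAA (12.4% of all windows), 229 bases before the start. The C/EBP, HNF4 and E-box motifs (9.56%, 0.384% and 6.02% of all windows) had no match in any of the 6. These matches describe letters and do not measure binding.

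The genes of the first step differed in level and in the size of their fall. Tdo2, tryptophan dioxygenase of hepatocytes (chromosome 3, 81957090 to 81976202, GRCm38 with GENCODE M21 as for all positions below), stood at 2921, 3282 and 2782 CPM (read count scaled to library size by the TMM method) in control replicates 1, 2 and 3 and at 1926, 2259 and 2728 CPM in LPS replicates 1, 2 and 3. Its groups did not overlap, but the highest LPS library lay just under the lowest control. The log2 fold change, LPS minus control, was -0.38 (SE 0.15, adjusted p = 0.0391, edgeR). That call ended without control replicate 1 (-0.40, adjusted p = 0.0642), control replicate 2 (-0.33, 0.0931), LPS replicate 1 (-0.29, 0.120) or LPS replicate 2 (-0.36, 0.111), in the same edgeR test.

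Ido2, a second dioxygenase with low activity on tryptophan (chromosome 8, 24531892 to 24576333), had 47.3, 37.6 and 47.1 CPM in the controls and 2.39, 3.38 and 5.42 CPM in LPS livers. Every LPS library was at least 6.94 times below every control, and its log2 fold change was -3.54 (SE 0.23, adjusted p = 4.68e-09). Ido1, the interferon-inducible dioxygenase of immune and other cells, had 0 counts in all 6 libraries. A count of 0 allows up to 0.0613 CPM over the control group and 0.0750 CPM over the LPS group (3 counts each, for counting error only). This takes counts as independent, and many of the lowest counts were even (Sarm1 had 8, 2 and 0 in controls and 2, 10 and 4 in LPS livers). Whether a fragment was counted 2 times is not given in the sources used here, and the bound would then be higher.

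Afmid, the formamidase that releases kynurenine (chromosome 11, 117825924 to 117839908), had the largest fall of the 10 genes. It went from 28.4, 17.6 and 19.6 CPM in the controls to 1.02, 1.20 and 2.35 CPM, the LPS values resting on 12, 17 and 33 counts (log2 fold change -3.81, SE 0.30, adjusted p = 2.31e-08). Only 1.02% of tested genes fell by more. Afmid shares 83 exonic bases with Tk1 on the other strand and 1566 with the gene model Gm20708 on its own, and the strand setting of the counting is not given in the sources used here. Tk1, thymidine kinase, also fell (log2 fold change -2.53, SE 0.28, adjusted p = 9.75e-07), from 172, 216 and 132 counts to 24, 22 and 28. How far these genes share reads was not tested.

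**Figure D1:**
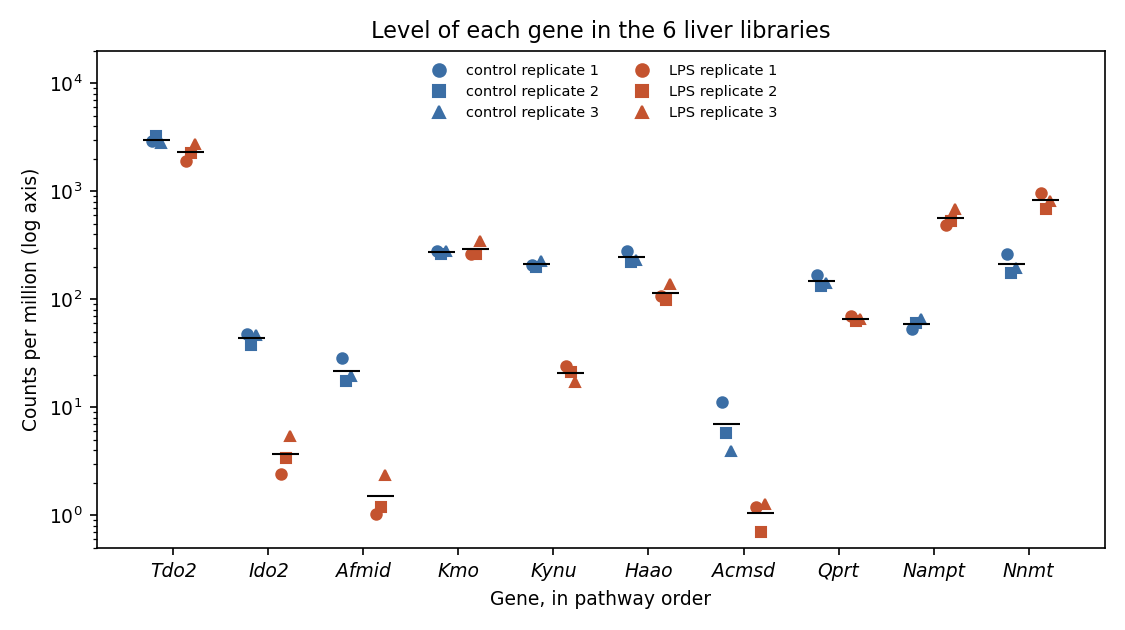
Level of the 10 genes in every library, in CPM on a log axis, with genes in pathway order, blue for control, red for LPS, one symbol shape per replicate number and a black line at each group mean. The groups are apart for 9 genes, Kmo overlaps, and Nampt and Nnmt alone lie higher in LPS.

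Below kynurenine the neighbouring enzymes Kmo and Kynu parted. Kmo, the hydroxylase that commits kynurenine to the NAD branch (chromosome 1, 175620381 to 175662116), had 280, 265 and 280 CPM in controls and 265, 263 and 346 CPM in LPS livers. The groups overlapped, with LPS replicate 3 above all others. The log2 fold change was 0.09 (SE 0.13, adjusted p = 0.588), with a 95% interval from -0.19 to 0.36, and it was -0.05 without LPS replicate 3.

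Kynu, kynureninase, which cleaves hydroxykynurenine (chromosome 2, 43555329 to 43682715), went from 209, 197 and 227 CPM to 24.3, 21.2 and 17.2 CPM. Each LPS library was at least 8.12 times below each control (log2 fold change -3.34, SE 0.15, adjusted p = 2.25e-11). Of tested genes, 1.60% fell by more. Haao, the dioxygenase that makes the unstable intermediate (chromosome 17, 83831156 to 83847963), fell less, from 282, 221 and 231 CPM to 107, 97.9 and 139 CPM (log2 fold change -1.09, SE 0.15, adjusted p = 8.31e-06).

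At the branch point, transcripts of both fates were lower. Qprt, which consumes quinolinate to make nicotinate mononucleotide (chromosome 7, 127107114 to 127122226), went from 167, 133 and 140 CPM to 70.3, 62.7 and 65.6 CPM, with the smallest relative spread among LPS libraries of the 10 genes (5.81% coefficient of variation). Its log2 fold change was -1.15 (SE 0.12, adjusted p = 8.01e-07). Acmsd, the decarboxylase that diverts the intermediate (chromosome 1, 127729413 to 127767978), was the least abundant of the 10. It had 143, 118 and 61 counts in controls (11.1, 5.74 and 3.91 CPM) and 14, 10 and 18 in LPS libraries (1.19, 0.703 and 1.28 CPM). The controls differed from each other by more than in any other gene here (coefficient of variation 54.3%), and the fold change (log2 -2.70, SE 0.42, adjusted p = 4.68e-05) became log2 -2.19 without control replicate 1. Acmsd shares 94 exonic bases with an antisense gene model.

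Nampt and Nnmt, which both act on nicotinamide, rose. Nampt, nicotinamide phosphoribosyltransferase (chromosome 12, 32819545 to 32853349), had 52.9, 60.5 and 65.4 CPM in controls and 487, 527 and 688 CPM in LPS livers. Its lowest LPS library was 7.45 times its highest control (log2 fold change 3.25, SE 0.16, adjusted p = 5.73e-11), and 2.67% of tested genes rose by more. Nnmt, nicotinamide N-methyltransferase (chromosome 9, 48591877 to 48605153), went from 262, 177 and 193 CPM to 964, 688 and 816 CPM (log2 fold change 1.97, SE 0.17, adjusted p = 6.53e-08), a rise that 5.99% of tested genes exceeded. The gene that reuses nicotinamide and the gene that removes it were therefore both higher in every LPS library than in any control.

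**Figure D2:**
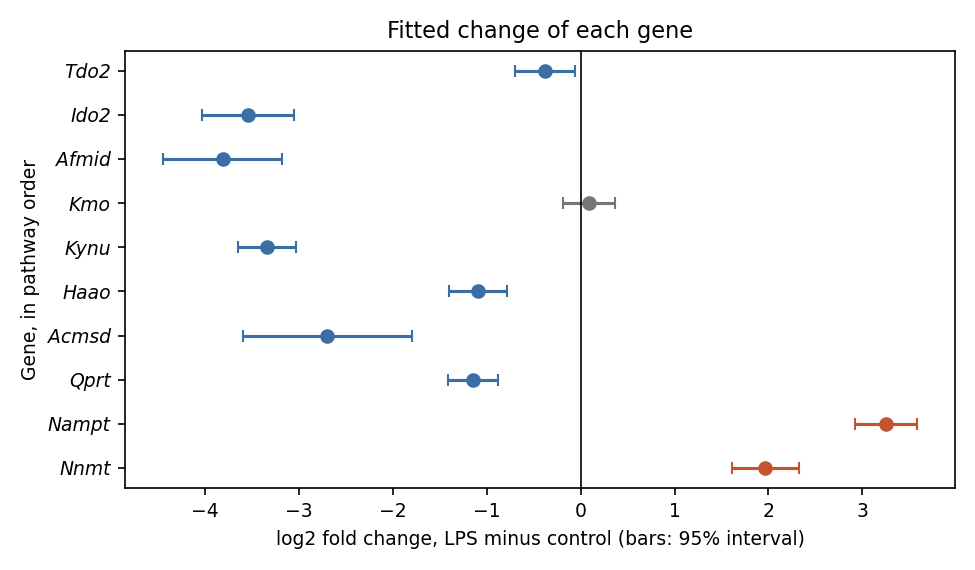
Fitted log2 fold change, LPS minus control, of each gene with its 95% interval from the edgeR fit. Blue points fell, red points rose, and the interval of Kmo (grey) spans 0, running from -0.19 to 0.36.

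Among the LPS libraries, replicate 3 had the highest value of 7 of the 10 genes, and of 6 when scaled by library totals alone. The TMM factor of that library was 0.909, beside 1.00 to 1.04 in the other 5. Kynu ran the other way and was lowest in LPS replicate 3. Without that library 7 genes still fell and 2 rose.

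Levels of different genes are compared as CPM per kb of annotated exon, taking all exons of a gene in GENCODE M21 together, so a gene with unused exons is placed too low. In controls Tdo2 came first at 772 ± 66.5 CPM per kb (SD, n = 3), followed by Nnmt at 134 ± 28.8. Kmo (58.2), Qprt (55.5) and Haao (52.2) came next and each overlapped its neighbour, then Kynu (34.4). Ido2 (12.1) and Nampt (11.8) overlapped, and Afmid (6.17) and Acmsd (2.45) came last. In LPS livers Tdo2 at 594 ± 104 CPM per kb and Nnmt at 522 ± 87.7 overlapped, and Nampt came next at 112 ± 21.1, above Kmo at 61.7. Qprt (25.0) and Haao (24.5) overlapped, and Kynu (3.40), Ido2 (1.03), Afmid (0.431) and Acmsd (0.374) closed the order, with Ido2, Afmid and Acmsd overlapping in turn. On this scale, by group means, Nampt moved from place 8 to place 3, and Tdo2 remained first in both groups. In LPS replicate 1, Nnmt (612 CPM per kb) lay above Tdo2 (496).

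The transcripts of the pathway were thus made up differently. The summed level of the 10 genes was 1171, 1173 and 1070 CPM per kb in controls and 1315, 1228 and 1490 in LPS livers. Tdo2 made up 64.3%, 72.1% and 67.0% of that sum in controls and 37.7%, 47.4% and 47.2% in LPS livers. Nampt and Nnmt together went from 15.1%, 10.6% and 12.6% to 53.8%, 44.0% and 43.9%, while Kynu, Haao and Qprt went from 13.4%, 11.1% and 13.0% to 4.06%, 3.91% and 3.84%. Neither group of shares overlapped between conditions. Because shares sum to a whole, a rise of Nnmt by itself lowers the share of the others.

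**Figure D3:**
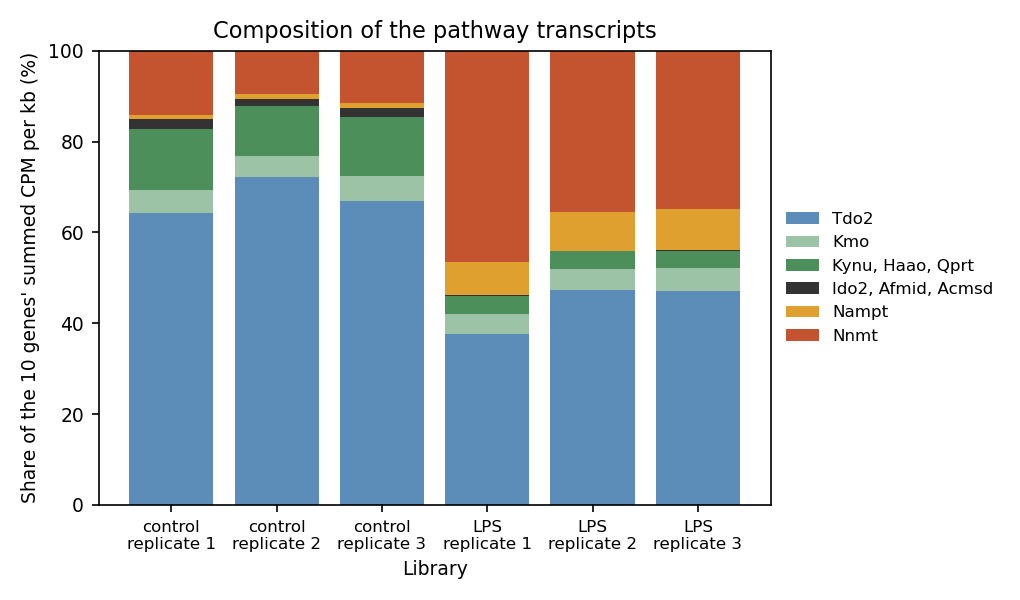
Share of each gene or gene group in the summed CPM per kb of the 10 genes, in percent, 1 bar per library. Tdo2 (blue) holds 64.3% to 72.1% in controls and 37.7% to 47.4% in LPS livers, and Nampt and Nnmt (yellow and red) grow to 43.9% to 53.8%.

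Ratios between 2 genes inside a library do not depend on how libraries are scaled. They are given as log2 ratios of counts per kb, with 2 counts added to each gene, as a description without a test (3 samples against 3 cannot reach an exact permutation p under 0.10). Tdo2 to Ido2 stood at 5.85, 6.35 and 5.79 in controls and 9.46, 9.23 and 8.84 in LPS livers, so Tdo2 outnumbered Ido2 at least 55.1-fold in controls and 460-fold in LPS livers. Kmo to Kynu went from 0.80, 0.80 and 0.68 to 3.82, 4.01 and 4.70. Nampt to Qprt, salvage against synthesis from tryptophan, was below 0 in every control (-2.58, -2.07 and -2.03) and above 0 in every LPS library (1.86, 2.14 and 2.45), the largest shift of the 5 ratios at 4.38. Qprt to Acmsd rose from 3.98, 4.61 and 5.22 to 5.79, 6.32 and 5.62, where the nearest libraries of the groups were close to each other. Nnmt to Nampt fell from 3.99, 3.23 and 3.24 to 2.66, 2.06 and 1.93, since Nampt rose more. The groups did not overlap in any of the 5 ratios.

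**Figure D4:**
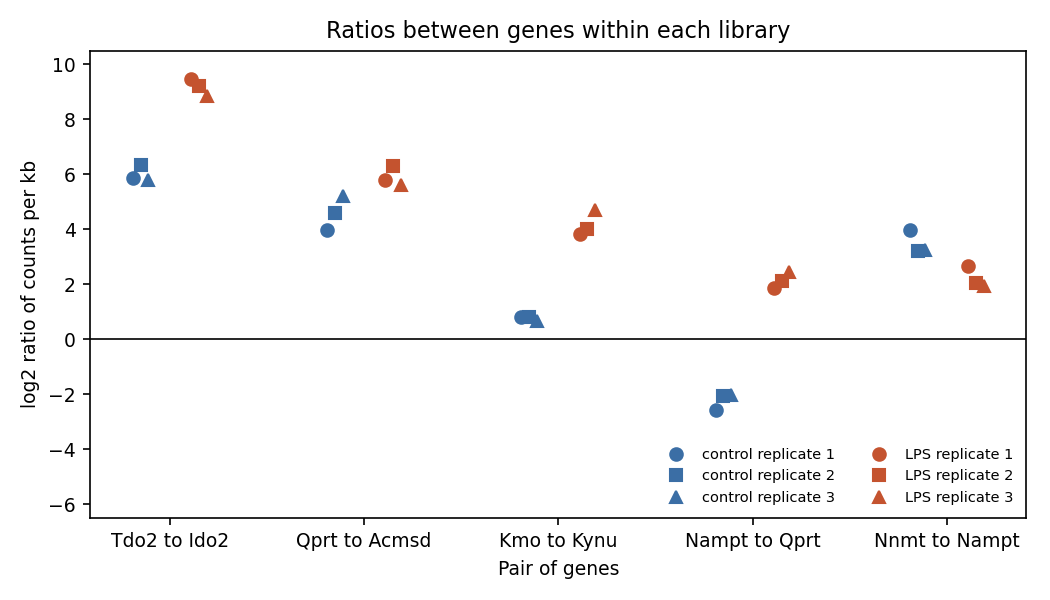
log2 ratio of counts per kb for 5 pairs of genes in each library, blue for control and red for LPS. Nampt to Qprt crosses 0, from -2.58 at the lowest control to 2.45 at the highest LPS library, and the groups are apart in all 5 pairs.

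Beyond the 10 genes, 65 others of tryptophan and NAD metabolism were listed, of which 58 were tested, 20 rose and 30 fell. Their median log2 fold change was -0.74. Over all tested genes 31.2% rose and 31.0% fell, so the share of risers here was near that of all genes. The counts of each list below stand beside the same 2 shares. Beside the branch that Acmsd opens, all 4 listed genes fell, with a median of -1.75. Aadat, which is not a step of the route from Acmsd, is counted again with the side branches. Aldh8a1, the dehydrogenase that follows Acmsd, went from 253 ± 9.25 to 69.7 ± 2.38 CPM (log2 fold change -1.86), Dhtkd1 of the oxoadipate dehydrogenase fell by 1.97 on the log2 scale, Aadat by 1.63 and glutaryl-CoA dehydrogenase, Gcdh, by 1.07. Of the aminotransferases that turn kynurenine into kynurenate, Aadat, Kyat3 (-1.21) and Got2 (-0.84) fell, and Kyat1 was not called. The tested side-branch list thus had 0 risers and 3 fallers of 4.

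Genes that bring tryptophan into cells split. Of 4 listed, Slc3a2, the heavy chain of the large neutral amino acid transporter, rose from 31.7 ± 3.76 to 116 ± 9.36 CPM (log2 fold change 1.87) and its light chain Slc7a5 from 2.86 ± 0.262 to 6.38 ± 0.666 CPM (1.16). Slc16a10, an aromatic amino acid transporter, fell from 94.3 ± 12.3 to 36.6 ± 1.65 CPM (-1.37), and Slc7a8 had -1.13 (adjusted p = 0.0329, edgeR). The call of Slc7a8 ended with DESeq2 (adjusted p = 0.0501) and without control replicate 2 (0.212), LPS replicate 2 (0.0557) or LPS replicate 3 (0.112) in edgeR.

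Tested genes listed for other routes to NAD, for NADP and for NAD transport mostly fell, but not all of them are steps of salvage from nicotinamide. The Nmnat genes, which act after Nampt, did not all fall, and Nmnat2 was not tested. Of the 13 listed genes, 11 were tested, 7 fell and 2 rose, with a median of -1.59. Naprt, Nmnat1 and Nt5e fell, Pnp rose, and Nmnat3 and Nmrk1 were not called. The other fallers were Nadsyn1, Nadk, Nadk2 and Nnt, and the other riser was Slc25a51. Nadsyn1, NAD synthetase, on which the routes from tryptophan and nicotinate both depend, went from 25.0 ± 4.65 to 5.21 ± 0.962 CPM (-2.26). Naprt, which feeds nicotinate into NAD, went from 137 ± 10.3 to 32.5 ± 1.44 CPM (-2.08) and shares 277 exonic bases with Eef1d on its own strand. The nuclear adenylyltransferase Nmnat1, needed also after Nampt, fell (-1.15, SE 0.24, adjusted p = 0.000670), and the mitochondrial Nmnat3 had 0.47 (SE 0.28, adjusted p = 0.154), with 0.79 (adjusted p = 0.0266) without control replicate 1. The NAD kinases Nadk (-1.59) and Nadk2 (-2.28) fell. Slc25a51, the carrier that takes NAD into mitochondria, rose from 104 ± 15.2 to 554 ± 49.8 CPM (2.41, SE 0.14, adjusted p = 5.24e-10, edgeR). Pnp, purine nucleoside phosphorylase, was the other riser (1.82) and shares 718 exonic bases with the gene model Gm49342 on its own strand.

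Genes that consume NAD went both ways. Of 14 listed genes of the PARP family, enzymes that attach ADP-ribose from NAD, 9 rose and 3 fell, with a median of 0.74. Tiparp, also a PARP, was listed with the aryl hydrocarbon receptor below, is not in these counts, and rose more (4.54). Parp10 (2.12) and Parp12 (1.40) rose, as did the tankyrase Tnks2 (0.56), while the DNA damage sensor Parp1 went from 26.6 ± 4.15 to 9.18 ± 0.540 CPM (-1.53) and Parp16 (-1.97) and Parp6 (-1.06) fell. Parp10 shares 205 exonic bases with Plec on its own strand. Of 7 sirtuins, NAD-dependent deacylases, 0 rose and 5 fell, with a median of -0.83. The mitochondrial Sirt3 (-1.33) and Sirt5 (-1.60) and the mainly cytosolic Sirt2 (-0.83) fell, as did Sirt4 (-1.28) and Sirt7 (-0.58). The call of Sirt4 ended without control replicate 1 (-1.06, adjusted p = 0.0724, edgeR) or LPS replicate 2 (-0.94, 0.0633), and its value was -1.92 without LPS replicate 3. Sirt6, not called (0.79, adjusted p = 0.108), was called higher without control replicate 1 (1.35, adjusted p = 0.0114). Sirt3 shares 418 exonic bases with Ric8a and 342 with Psmd13, both on the other strand. Sirt1 had 0.05 (SE 0.20, adjusted p = 0.828). The NAD hydrolase Cd38 rose from 18.3 ± 5.38 to 56.6 ± 12.7 CPM (1.61), and Bst1, a second NAD hydrolase of blood cells, went from 4, 5 and 2 counts to 34, 34 and 30. Sarm1 was not tested, with 0 to 10 counts per library.

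Downstream of Nnmt, the oxidases of methylnicotinamide fell while Nnmt itself rose. Aox3 went from 249 ± 5.61 to 18.3 ± 2.78 CPM (-3.76, SE 0.14, adjusted p = 4.08e-12) and Aox1 from 68.0 ± 8.21 to 9.37 ± 1.80 CPM (-2.86). Cyp2e1, which oxidises nicotinamide among many substrates, went from 7421 ± 566 to 3197 ± 155 CPM (-1.22). All 3 listed genes of nicotinamide clearance were thus lower.

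**Figure D5:**
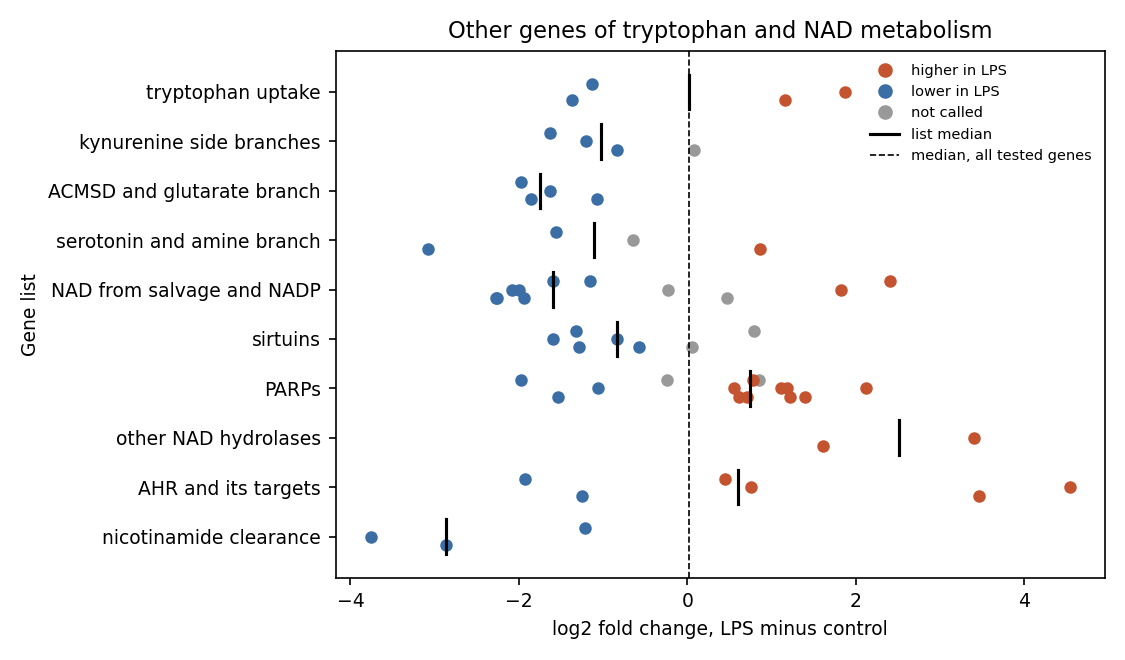
log2 fold change, LPS minus control, of each tested gene in 10 lists of tryptophan and NAD metabolism, red for risers, blue for fallers and grey for genes not called, with a black bar at the list median and a dashed line at the median of all tested genes (0.01). The glutarate branch and nicotinamide clearance hold fallers only, and most PARP genes lie above 0.

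Whole liver holds several cell types, and in bulk RNA fewer cells of a type and less RNA per cell cannot be told apart. The labelled tissue held its markers: 8 of 8 hepatocyte markers were tested, with a summed level of 103609 to 116478 CPM in controls and 67671 to 93086 CPM in LPS livers (1 rose, 6 fell, median -0.53). Single hepatocyte markers ran from -3.64 (Cps1, of the urea cycle) to 1.39 (Tat, of tyrosine breakdown) on the log2 scale. Beside Nampt, which blood cells also express, 5 of 8 neutrophil markers were tested and all 5 rose, their summed level going from 4.05 to 7.54 CPM in controls to 149 to 188 CPM. The defining neutrophil marker Ly6g went from 0, 4 and 0 counts to 10, 26 and 8, and Mpo and Elane had 0 to 8 counts per library. Monocyte and macrophage markers summed to 43.0 to 53.4 CPM in controls and 52.2 to 64.1 CPM in LPS livers (3 of 6 rose, 1 fell). That sum joined opposite changes. Lyz2 fell from 41.6 ± 5.32 to 9.76 ± 2.58 CPM, while Chil3 (0.309 to 24.5 CPM), Ly6c2 (0.363 to 8.77) and Itgam (0.429 to 6.82) rose. These 3 risers also passed the filter through their LPS libraries. Beside Kynu, Kupffer cell markers summed to 209 to 225 CPM in controls and 48.4 to 80.1 CPM in LPS livers (5 of 6 fell, 1 rose). T and NK cell markers summed to 1.65 to 2.65 CPM in controls and 7.95 to 9.77 CPM in LPS livers, with 1 of 2 tested risen. That riser, Gzmb (0.203 to 5.34 CPM), had 0, 2 and 8 counts in controls and passed the filter through its LPS libraries. Nkg7 was not called, and Cd3e, Cd3g, Cd8a and Klrb1c, with 0 to 18 counts per library, were not tested. Markers of endothelium (1 rose, 2 fell of 5), stellate cells (1 and 3 of 5) and cholangiocytes (2 and 1 of 3) went both ways. The part of other cells in any of these changes was not tested.

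Total counts per library ran from 11488525 to 20282004, and no library of a group repeated another within counting error (chi-square per degree of freedom 12.0 to 32.9).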

How the data were processed

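Liver RNA of 3 control and 3 LPS samples was extracted with Trizol, per the labels. The authors deposited raw counts per gene, 1 table per library, without normalization. The submitters' processing notes name bcl2fastq 2.0, HISAT2, StringTie, DESeq2, limma and mm10 without roles. The counting tool, annotation, strand setting and treatment of multiply mapped reads are not given in the sources used here. Rows hold symbols and Entrez identifiers in fields of 8 characters. Identifiers were matched to RefSeq genes of GRCm38.p6 (20722 of 22488 rows), and positions and exon lengths came from GENCODE M21.

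The counts were fitted in R 4.3.3 with edgeR 4.0.16 (TMM scaling, filterByExpr with a minimum count of 10 and a minimum total of 15, robust quasi-likelihood F test, 2-sided, Benjamini-Hochberg over all 12078 genes tested, threshold 0.05). Standard errors are the size of the log2 fold change over the root of F. CPM are given per library or as mean ± SD, n = 3. The method was run on simulated data with 200 changed genes. That is a far smaller share than the 62.2% called in these livers, so the simulation did not test the scaling at such a share. Alternatives were DESeq2 1.42.0, RLE scaling, library totals, no filter, the replicate number as a block, and each library left out.

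The members and lists were chosen with earlier results of these data known. Named genes are the members, the most abundant gene and the 3 lowest adjusted p of each list, all genes of lists of 4 or fewer, and 11 genes fixed by name. Kyat1, Tk1, Pnp, Parp6, Sirt4, Sirt6, Sirt7, Tph1, Maoa, Arnt, Nqo1, Cyp1a1, Nmrk1, Nt5e and Nnt were named after their values were seen. So were the markers Cps1, Tat, Ly6g, Mpo, Elane, Lyz2, Chil3, Ly6c2, Itgam, S100a8, S100a9, Csf3r, Cxcr2, Retnlg, Gzmb, Nkg7, Cd3e, Cd3g, Cd8a and Klrb1c. Gene lists were described by counts and medians, without a set test. One upstream window is not reported here.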

Additional observations from a re-analysis of the deposited data

How the results depend on the processing

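Of 110 refits of the 10 genes under the alternatives, 105 kept the direction and the side of the threshold. In 4 the call of Tdo2 ended, each with a library left out (from -0.51 to -0.29 over the 6 such fits), and in 1 the sign of Kmo, which was not called, reversed (from -0.046 to 0.16 over these fits). The other 8 genes were called in all 6 fits with a library left out. Of 528 refits of the other named genes 506 kept both. The sign of Sirt1, not called, turned with library totals (-0.0022) and with a library left out (from -0.15 to 0.24), and that of Kyat1, not called, likewise (-0.0044, and from -0.20 to 0.27). The rise of Inmt was not called without a filter (0.82, adjusted p = 0.0621, edgeR) or without LPS replicate 3 (0.68, adjusted p = 0.0567). All 40 alternatives of the 5 ratios moved by less than the pooled SD between libraries, but for most of them this was fixed in advance. Gene length cancels in the difference, and leaving out 1 of 3 libraries cannot move a difference that far. Only adding 0.5 counts in place of 2 could have failed. There Qprt to Acmsd moved most, from a difference of 1.31 to 1.43, beside a pooled SD of 0.51. Over all genes, library totals gave 3437 higher and 3982 lower against 3772 and 3740, and shifted the median log2 fold change by -0.07. The low counts of Acmsd and Afmid in LPS libraries limit their precision.

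With the replicate block 3774 genes were higher and 3762 lower, and 2 of the 10 genes rose and 7 fell. Deviations from the group means correlated at -0.000745, 0.104 and 0.0352 between libraries of the same number, and not every library correlated best with its own number, so the numbers were not taken as pairs.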

Other observations

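Tryptophan can also leave toward serotonin and tryptamine. Tph1, the peripheral tryptophan hydroxylase, had 0 counts in all 6 libraries. Ddc, the decarboxylase that makes both amines, went from 64.3 ± 7.49 to 7.58 ± 1.16 CPM (-3.08 on the log2 scale, SE 0.16, adjusted p = 9.89e-11, edgeR), and the amine oxidase Maob went from 160 ± 20.8 to 54.4 ± 7.48 CPM (-1.56). Inmt, which methylates tryptamine and other amines, was higher, with 101, 196 and 168 CPM in controls and 240, 253 and 353 CPM in LPS livers (0.86, SE 0.25, adjusted p = 0.0145). Of the 4 tested genes of this list 1 rose and 2 fell, with a median of -1.10. Maoa was not called (-0.65, adjusted p = 0.0900), but was called lower with the replicate block (-0.67, adjusted p = 0.0223), library totals (-0.74, 0.0455) or no filter (-0.69, 0.0328), and without control replicate 1 (-0.88, 0.0291) or LPS replicate 3 (-0.97, 0.0219), in edgeR. The call of Inmt ended without a filter or without LPS replicate 3 (0.68, adjusted p = 0.0567).

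Kynurenine and its relatives are ligands of the aryl hydrocarbon receptor, Ahr. Of 8 listed genes of the receptor and its targets 6 were tested, 4 rose and 2 fell, with a median of 0.60. Ahr itself went from 34.7 ± 9.32 to 14.5 ± 2.39 CPM (-1.25), its partner Arnt rose (0.76), and the target Nqo1 fell (-1.93). Among its known targets Tiparp, which is also induced by other signals, went from 5.31 ± 1.88 to 125 ± 16.7 CPM (4.54, SE 0.22), Cyp1b1 from 0.658 ± 0.363 to 7.72 ± 1.29 CPM (3.46) and Cyp1a2 from 280 ± 21.7 to 383 ± 62.9 CPM (0.45, SE 0.14, adjusted p = 0.00948, edgeR). Cyp1a1, the classical target, was not tested for its low counts (0, 6 and 2 in controls, 6, 5 and 10 in LPS livers). The RNA data hold no measure of kynurenine or of NAD.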
